A study of Mus musculus with 24 samples.

Results

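The mitochondrial ribosomal protein genes are the nuclear genes whose products, made in the cytosol and imported, build the ribosome of the mitochondrion. They were chosen by symbol (Mrpl or Mrps followed by a digit, no pseudogene) and by a mean of at least 1 CPM (a gene's counts relative to the library total) over the 12 RNA libraries, and 78 of the 55401 genes in the RNA table met this rule. All 78 passed the filter on low counts. By their place in the particle, 51 belong to the large subunit, which joins amino acids, and 26 to the small subunit, which reads the messenger RNA. Mrps36 was assigned to neither, since its product is a component of the 2-oxoglutarate dehydrogenase complex of the citric acid cycle. The mitochondrial ribosome translates the few messenger RNAs encoded by mitochondrial DNA, which specify subunits of the respiratory chain and of the ATP synthase. Its proteins come from nuclear genes and its ribosomal RNAs from mitochondrial DNA, so each particle draws on both genomes. T cells are known to enlarge their mitochondria and their protein synthesis when they are activated.

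The cells were CD8 T cells from spleen and lymph nodes of C57BL/6J mice, activated in culture for 3 days with an antibody to CD28 and with interleukin 2. From day 2 to day 3 they received 20 mM sodium pyruvate, 20 mM sodium lactate, 20 mM sodium lactate with Oxyrase, or 20 mM NaCl, the control. Pyruvate and lactate stand below for these sodium salts. Oxyrase is a bacterial membrane preparation that takes up oxygen from the medium. It was given only on top of lactate, so its comparison with NaCl combines both additions. Pyruvate and lactate are a keto acid and the matching hydroxy acid, which lactate dehydrogenase converts into each other. Each group had 3 RNA-seq libraries and 3 ATAC-seq libraries, the second assay marking open DNA by the insertions of a transposase. The labels do not say whether replicates came from separate mice or cultures, so p-values measure the spread between these libraries, which may be technical. In the RNA table, 448 of the 460 genes that hold decimals above 1 were listed at 0 in all libraries of 1 replicate number, and no step that would give this is stated in the sources used here. Deviations of RNA libraries from their group means correlated at -0.245 to -0.084 in the 18 pairs that share a number, all below the -0.078 to 0.18 of the 36 pairs that do not, while in ATAC the corresponding ranges overlapped (-0.169 to 0.198 and -0.22 to 0.187). If values were adjusted by number before deposit, the spread within groups, and with it the p-values, would be too small.

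RNA libraries held 26036288.5 to 39643683.25 counts in genes and ATAC libraries 25308254 to 37074367 counts in peaks, and 14749 genes and 75802 peaks were tested. The 7 markers of CD8 T cells were all detected and summed to 1758 to 1826 CPM with pyruvate, 1848 to 1918 CPM with lactate, 1352 to 1426 CPM with lactate and Oxyrase, and 1938 to 2007 CPM with NaCl. The libraries with Oxyrase lay below all others, and 5 of the 7 markers fell there against lactate, Cd8a by 0.70 on the log2 scale (adjusted p = 4.8e-11). Adjusted p-values for genes and peaks are from edgeR's quasi-likelihood test with Benjamini-Hochberg adjustment over all genes or peaks tested, and a feature was called at an adjusted p under 0.05. The 4 markers of B cells summed to at most 4.12 CPM and Cd4 reached at most 0.621 CPM. The myeloid, NK and erythroid markers summed to at most 0.418, 0.155 and 0.282 CPM, with 1 of 3 erythroid genes at 0 throughout. The part of the CD8 T cell markers in the results with Oxyrase was not tested. These sums, and the rule above, use CPM on library totals; other levels, unless library totals are named, are CPM after scaling by TMM, which corrects the totals for differences in composition (factors of 0.9795 to 1.021 for RNA). In bulk RNA, fewer cells of a type and less RNA per cell cannot be told apart.

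The summed level of the family was lower with pyruvate and with lactate and Oxyrase than with NaCl, while the order of lactate and NaCl depended on the scaling. Summed over the 78 genes after TMM scaling, the level was 3531, 3403 and 3577 CPM in the 3 pyruvate libraries, 3696, 3817 and 3746 CPM in the lactate libraries, 3467, 3440 and 3527 CPM in the lactate with Oxyrase libraries, and 3658, 3664 and 3668 CPM in the NaCl libraries. On library totals it was 3580, 3392 and 3587 CPM with pyruvate, 3718, 3748 and 3774 CPM with lactate, 3395, 3415 and 3471 CPM with lactate and Oxyrase, and 3704, 3740 and 3653 CPM with NaCl. On both scales each pyruvate and each Oxyrase library lay below each NaCl library. The lactate libraries lay above all NaCl libraries after TMM scaling and overlapped them on library totals. The group values on library totals were 3520.0 ± 111 CPM with pyruvate, 3747 ± 27.9 CPM with lactate, 3427 ± 39.4 CPM with lactate and Oxyrase, and 3699 ± 43.8 CPM with NaCl (SD, n = 3 each). No test was made of these sums, since the genes were chosen with results known.

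**Figure D1:**
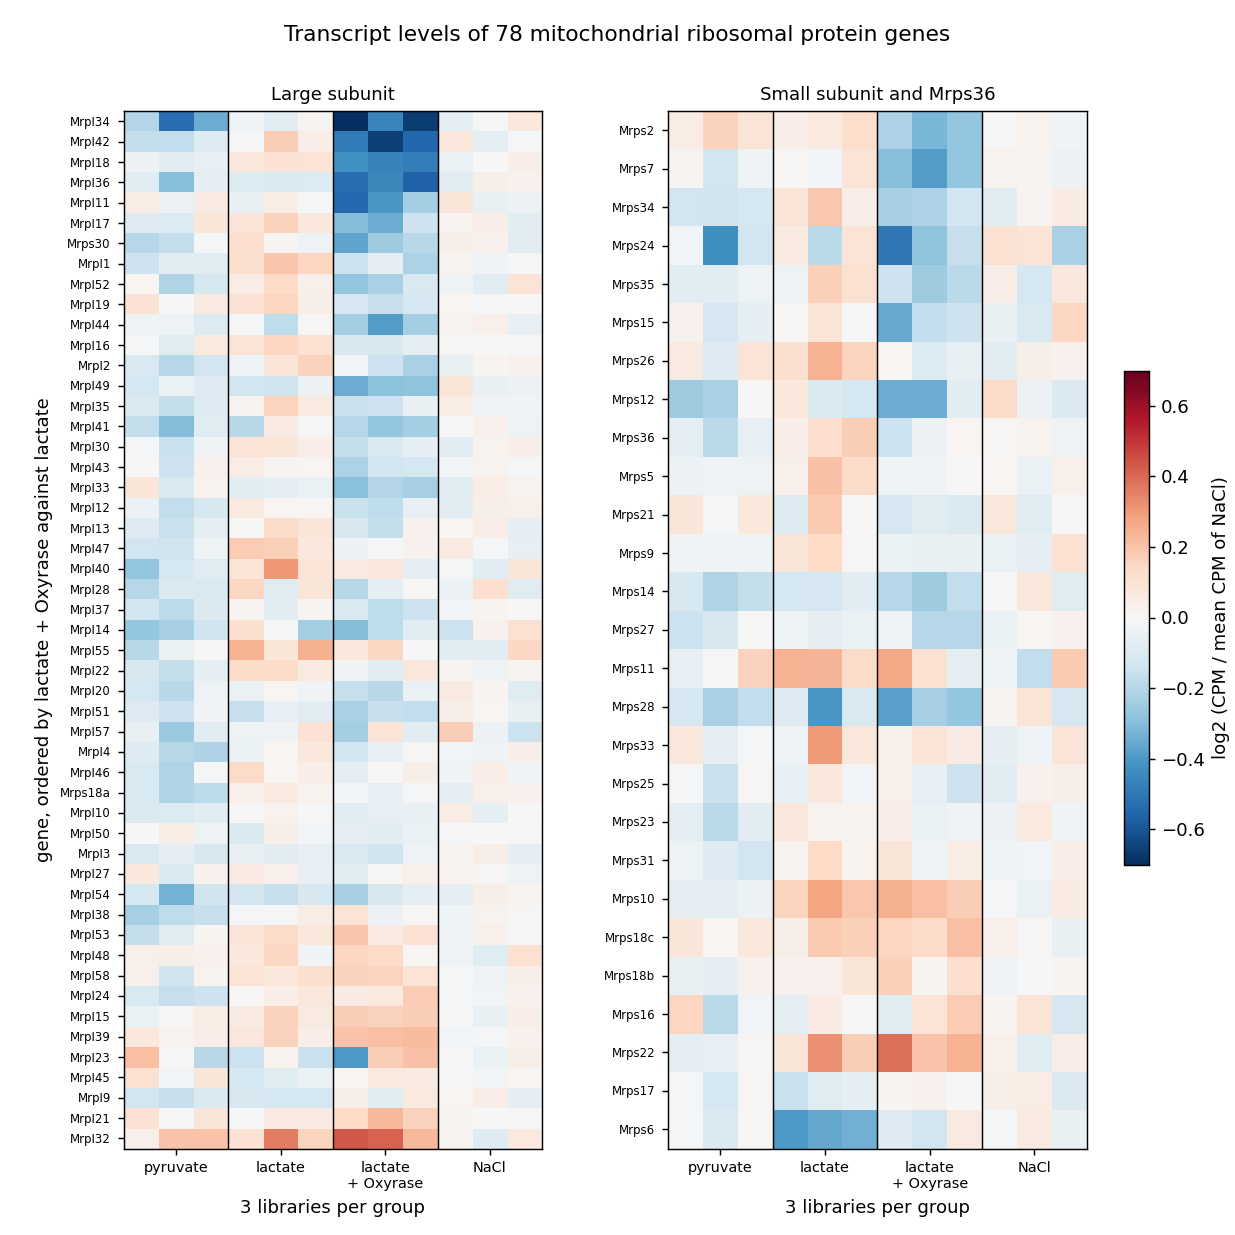
Heat map of the 78 genes (rows, ordered by the change of lactate with Oxyrase against lactate) in the 12 RNA libraries (columns, 3 per group), with colour giving the log2 ratio of the gene's CPM to its mean over the NaCl libraries. Mrpl34 and Mrpl42 are among the genes lowest in the 3 libraries with lactate and Oxyrase, and Mrps6 is low in the 3 libraries with lactate alone.

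Gene by gene, changes were small. Calls were most frequent where Oxyrase was added, in the family and among all genes tested alike. In lactate with Oxyrase against lactate, 40 of the 78 genes were not called, beside 7426 of all 14749 genes tested. In lactate with Oxyrase against lactate, 33 of 78 genes fell (42.3%) and 5 rose (6.41%), beside 23.6% lower and 26.1% higher among all genes tested. The median log2 fold change was -0.12 for the family and 0.00 for all genes. In lactate with Oxyrase against NaCl, 30 fell (38.5%) and 9 rose (11.5%), beside 24.3% lower and 26.5% higher among all genes, with a median of -0.07 (-0.11 on library totals). In pyruvate against lactate, 27 fell (34.6%) and 2 rose (2.56%), beside 10.9% lower and 13.0% higher, with a median of -0.12.

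Against NaCl, pyruvate and lactate alone each gave few calls. In pyruvate against NaCl, 9 genes fell and none was called higher, beside 6.28% lower and 9.40% higher among all genes, with a median of -0.08; 1 gene, Mrps2, was higher at an unadjusted p under 0.05, and DESeq2 also called 9 genes in all. In lactate against NaCl, 2 rose and 1 fell, beside 3.61% higher and 4.12% lower, with a median of 0.04 (0.02 on library totals). The median of all genes was 0.00 in each comparison. Among the 7290 tested genes within the family's own range of mean CPM, 2044 were lower and 2189 higher in lactate with Oxyrase against lactate, and 877 lower and 1180 higher in pyruvate against lactate. Over the 5 comparisons, 63 of the 78 genes (80.8%) were called at least once and 15 never, beside 65.6% of all genes tested that were called at least once. That share was not counted for the genes within the family's range of mean CPM. The comparisons share libraries, so their counts are not independent of one another.

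**Figure D2:**
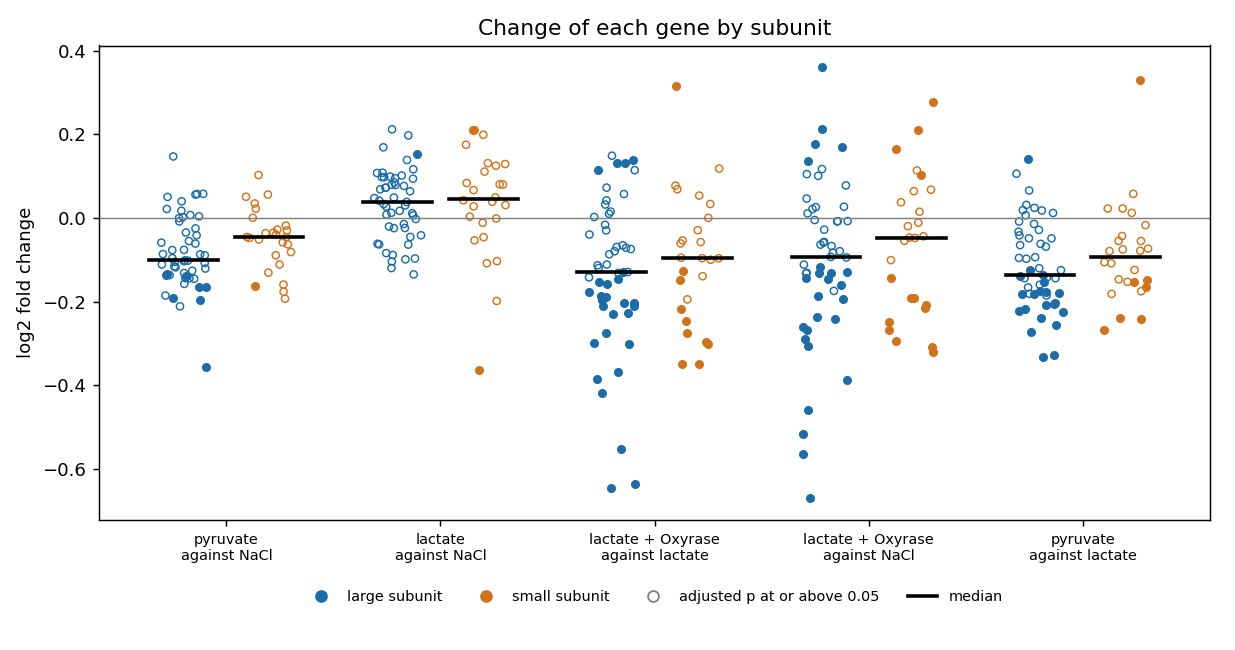
Log2 fold change of each gene (points) in the 5 comparisons, large subunit in blue and small subunit in orange, filled where the adjusted p was under 0.05, with bars at the subunit medians. The medians lie below 0 in every comparison except lactate against NaCl, and the lowest points, -0.65 and -0.67 for Mrpl34, belong to the large subunit in both comparisons with Oxyrase.

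The largest falls were found with Oxyrase, at genes of the large subunit. Mrpl34 (ENSMUSG00000034880, chromosome 8, 71464926 to 71465753 in GRCm38.p6) encodes a small protein with a bacterial counterpart. It had 14.0, 19.5 and 17.0 CPM with lactate and Oxyrase, against 26.4, 25.6 and 27.3 CPM with lactate and 25.8, 26.6 and 28.3 CPM with NaCl. No Oxyrase library reached the lowest library of either other group, and the log2 fold change was -0.65 against lactate (SE 0.09, adjusted p = 2.0e-05) and -0.67 against NaCl (SE 0.10, adjusted p = 1.4e-05). Mrpl42 (ENSMUSG00000062981, chromosome 10, 95480805 to 95501949), a subunit without a bacterial counterpart, had 45.3, 40.4 and 43.4 CPM with lactate and Oxyrase, against 63.3, 71.6 and 65.6 CPM with lactate and 66.9, 60.8 and 63.2 CPM with NaCl. These groups did not overlap either, and the change was -0.64 against lactate (SE 0.06, adjusted p = 5.0e-08) and -0.56 against NaCl (adjusted p = 2.3e-07).

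The 250 bases before the RefSeq start of each of these genes (GRCm38.p6) are shown because both hold the same 12 bases, ACTACAACTCCC. The search allowed any base at position 8 of this element, which was added after these windows had been seen. The Mrpl34 window is chr8:71464676-71464925 on the plus strand and the Mrpl42 window is chr10:95501950-95502199 on the minus strand, each written 5′ to 3′ along its gene. Capitals mark that element and, in addition, the ETS-type motif CCGGAAG in Mrpl34 and the SP1 motif GGGCGG, here on the other strand as CCGCCC, in Mrpl42.
Mrpl34: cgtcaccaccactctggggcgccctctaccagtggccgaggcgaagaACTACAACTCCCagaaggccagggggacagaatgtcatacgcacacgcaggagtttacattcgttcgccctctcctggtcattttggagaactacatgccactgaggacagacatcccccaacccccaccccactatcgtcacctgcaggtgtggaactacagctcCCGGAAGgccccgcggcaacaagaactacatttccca
Mrpl42: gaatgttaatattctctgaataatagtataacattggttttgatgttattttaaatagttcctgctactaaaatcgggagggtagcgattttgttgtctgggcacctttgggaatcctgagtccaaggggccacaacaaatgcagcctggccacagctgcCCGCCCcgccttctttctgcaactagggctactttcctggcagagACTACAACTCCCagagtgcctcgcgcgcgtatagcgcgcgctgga
On either strand of the 300 bases from 250 before to 50 after the start, this element stood in 4 of the 69 genes of the family that have a RefSeq start in the table (5.8%) and in 263 of 10101 other tested genes (2.6%). Mrpl34 and Mrpl42, whose windows had been seen before the element was added, are among the 4. These shares therefore cannot be read as an enrichment. The other members with it were Mrpl24 (0.06 in lactate with Oxyrase against lactate, not called) and Mrpl50 (-0.04, not called).

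Mrpl18 (ENSMUSG00000057388), a protein of the central protuberance of the large subunit, had 74.9, 72.6 and 71.8 CPM with lactate and Oxyrase, against 106, 108 and 108 CPM with lactate and 97.3, 101 and 104 CPM with NaCl. The Oxyrase libraries lay below every library of both other groups, with -0.55 against lactate (SE 0.04, adjusted p = 9.2e-10) and -0.46 against NaCl (adjusted p = 1.1e-08). Its annotated span shares 1459 bases with Tcp1, so part of its reads may belong to that gene. Mrpl36 (ENSMUSG00000021607), among the smallest proteins of the ribosome, had 21.9, 23.3 and 21.4 CPM with lactate and Oxyrase, against 29.8, 29.6 and 29.7 CPM with lactate and 30.1, 32.7 and 32.5 CPM with NaCl. These groups were also apart, at -0.42 against lactate (SE 0.06, adjusted p = 3.1e-05) and -0.52 against NaCl (adjusted p = 3.2e-06).

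**Figure D3:**
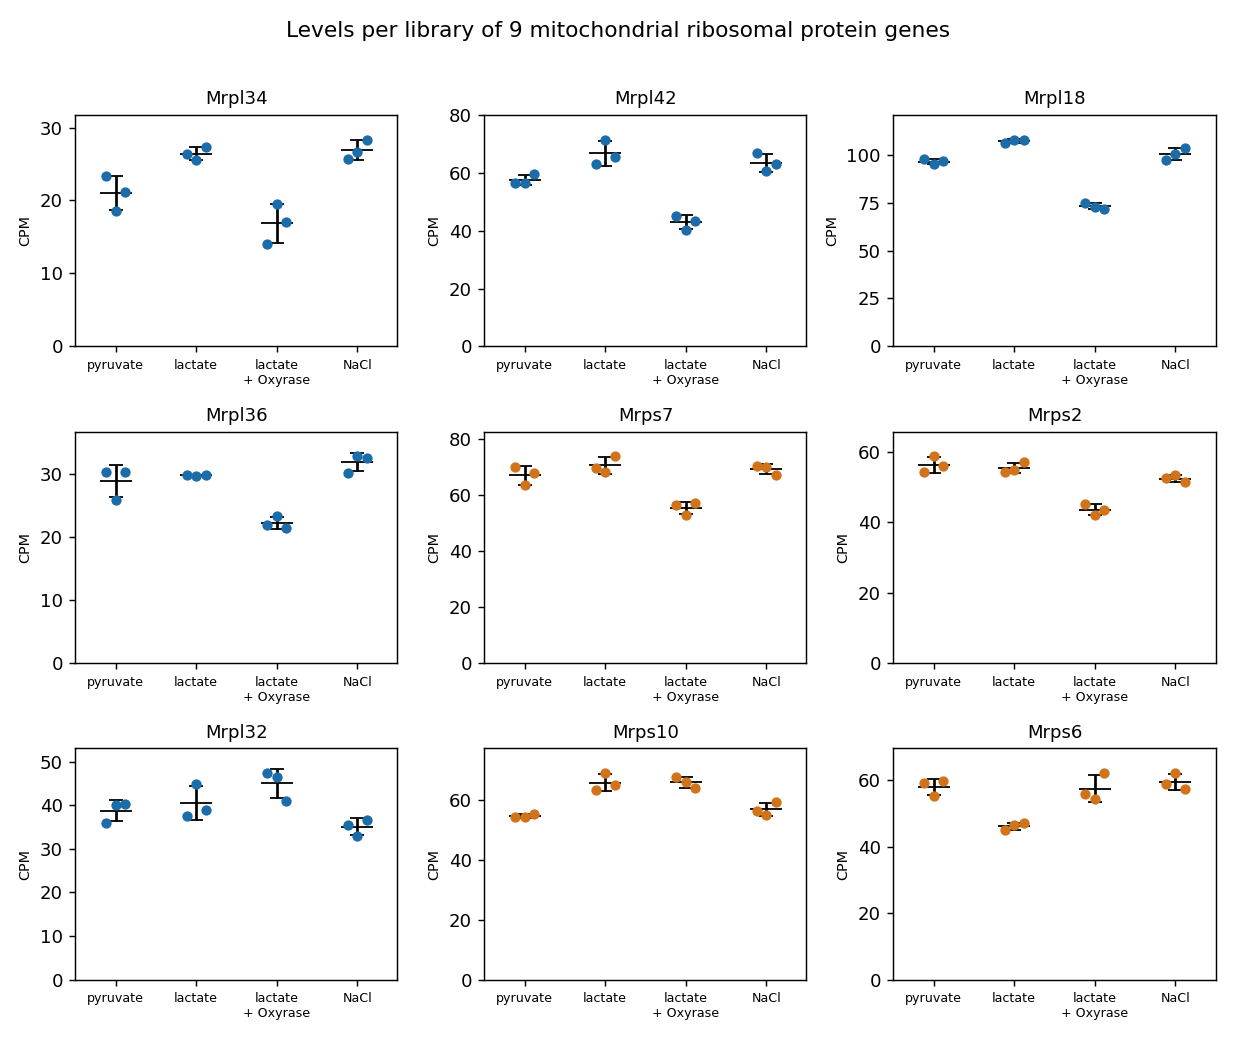
CPM in each library (points) with group mean and SD (n = 3) for selected genes of both subunits. Mrpl42, Mrpl18 and Mrpl36 are lower in all 3 libraries with lactate and Oxyrase than in any other library, and Mrps6 is lower in the 3 libraries with lactate than in any other library.

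In the stalk, the arm of the large subunit that receives translation factors, Mrpl11 and Mrpl12 fell with Oxyrase and Mrpl10 was not called. Mrpl11, at the stalk's base, had 29.8, 32.7 and 36.9 CPM with lactate and Oxyrase, against 41.9, 45.0 and 43.2 CPM with lactate. The groups did not overlap, and the gene fell by 0.39 (SE 0.07, adjusted p = 0.00011). Mrpl12, the stalk protein itself, had 79.0, 78.0 and 84.5 CPM with lactate and Oxyrase, against 92.4, 88.9 and 88.5 CPM with lactate, again without overlap, and fell by 0.16 (SE 0.05, adjusted p = 0.0083). Mrpl10, which anchors that protein, had 47.9, 48.4 and 48.6 CPM with lactate and Oxyrase, against 50.3, 51.2 and 50.1 CPM with lactate. Those values did not overlap, but the difference of -0.07 did not pass the test (adjusted p = 0.21). How far these stalk genes differ from one another was not tested. Among other genes of the large subunit, Mrpl17 (-0.37), Mrps30 (-0.30, named for the small subunit but located in the large), Mrpl1 (-0.30), Mrpl44 (-0.23), Mrpl2 (-0.21) and Mrpl41 (-0.20) fell against lactate. The call of Mrpl41 was lost in 6 of 13 alternatives, 4 of them with 1 library left out. Mrpl3, a core protein with a bacterial counterpart, gave -0.03 and Mrpl58, an enzyme that frees peptides from stalled ribosomes, gave 0.04, and neither was called.

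In the small subunit the largest falls with Oxyrase against lactate were at Mrps2 and Mrps7, which both have bacterial counterparts. Mrps7 had 56.3, 52.9 and 57.1 CPM with lactate and Oxyrase, against 69.6, 68.3 and 73.8 CPM with lactate and 70.4, 70.1 and 67.2 CPM with NaCl, with -0.35 against lactate (SE 0.05, adjusted p = 1.0e-05). Mrps2 had 45.1, 42.0 and 43.5 CPM with lactate and Oxyrase, against 54.2, 55.0 and 57.1 CPM with lactate and 52.6, 53.3 and 51.4 CPM with NaCl, with -0.35 against lactate (SE 0.04, adjusted p = 5.2e-06). In neither gene did the Oxyrase libraries overlap those of the other groups. Mrps34, a subunit without a bacterial counterpart, fell by 0.30 and Mrps15 fell by 0.25 against lactate. Mrps12, part of the decoding centre, gave -0.19 against lactate (not called) and fell by 0.25 against NaCl (adjusted p = 0.034), a call lost when Oxyrase replicate 1 or 2 or NaCl replicate 1 or 2 was left out. Mrps16 gave 0.07 against lactate and 0.07 against NaCl and was called in no comparison.

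A smaller number of genes rose with Oxyrase. Mrpl32 (ENSMUSG00000015672), a subunit that a protease of the inner membrane trims before it joins the ribosome, had 47.3, 46.5 and 41.0 CPM with lactate and Oxyrase, against 37.6, 44.8 and 39.0 CPM with lactate and 35.5, 32.9 and 36.7 CPM with NaCl. The Oxyrase libraries lay above all NaCl libraries and overlapped those with lactate, and the change was 0.36 against NaCl (SE 0.07, adjusted p = 0.00051) and 0.15 against lactate (adjusted p = 0.097, not called). Mrps22, a subunit without a bacterial counterpart, had 64.7, 56.9 and 58.7 CPM with lactate and Oxyrase, against 50.8, 46.8 and 51.2 CPM with NaCl, without overlap, and rose by 0.28 (SE 0.06, adjusted p = 0.0012). Mrpl39, Mrps10, Mrpl21 and Mrpl15 rose against NaCl by 0.21, 0.21, 0.18 and 0.17. Against lactate the 5 genes that rose were Mrps6 (0.32), Mrpl21 (0.14), Mrpl45 (0.13), Mrpl9 (0.13) and Mrpl39 (0.11). Of these, the call of Mrpl39 was lost in 8 of 13 alternatives (adjusted p = 0.053 to 0.14), among them scaling on library totals, no filter on low counts, the replicate block and 4 single libraries left out. That of Mrpl21 was lost in 3 (no filter, without lactate replicate 1 and without Oxyrase replicate 2) and that of Mrpl9 in 2 (without Oxyrase replicate 1 or 3). With 1 library left out, 3 to 7 genes were called higher, so some of these fits also called genes beyond the 5.

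Lactate alone left most of the family near the NaCl level. For all 78 genes the 95% interval of the difference lay within 1.5-fold either way. Mrps6 (ENSMUSG00000039680, chromosome 16, 92058336 to 92112227), a small-subunit protein with a bacterial counterpart, had 45.0, 46.4 and 47.1 CPM with lactate, against 58.9, 62.1 and 57.4 CPM with NaCl. Every lactate library lay below every NaCl library, and the gene fell by 0.36 (SE 0.05, adjusted p = 0.00066). It had 59.2, 55.4 and 59.8 CPM with pyruvate and 55.9, 54.4 and 62.1 CPM with lactate and Oxyrase, so that both groups lay above lactate and overlapped NaCl.

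The 2 genes that rose with lactate were Mrps10 and Mrpl1, which both have bacterial counterparts. Mrps10 had 63.3, 68.8 and 64.9 CPM with lactate, against 56.3, 55.0 and 59.2 CPM with NaCl, without overlap, and rose by 0.21 (SE 0.04, adjusted p = 0.0081). It had 67.4, 65.8 and 64.0 CPM with lactate and Oxyrase (0.00 against lactate, not called), and 54.2, 54.2 and 55.3 CPM with pyruvate, below every lactate library (-0.27, adjusted p = 0.00025). Mrpl1 had 58.7, 62.3 and 60.4 CPM with lactate, against 55.3, 53.5 and 54.5 CPM with NaCl, and rose by 0.15 (adjusted p = 0.046). Its groups did not overlap in any of the 5 comparisons, which share libraries. How often this holds among all genes tested was not counted. The call of Mrpl1 was lost when any 1 of the 6 libraries was left out (adjusted p = 0.054 to 0.165), and that of Mrps10 without NaCl replicate 2 (adjusted p = 0.0509).

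The value of Mrps6 is uncertain, because Slc5a3, a transporter of myo-inositol, shares 29138 bases of annotated span with it, and reads of one can be counted for the other. Slc5a3 had 104, 102 and 107 CPM with lactate, against 113, 118 and 102 CPM with NaCl, groups that overlapped, with -0.09 (not called). It rose by 0.35 in lactate with Oxyrase against lactate (adjusted p = 4.0e-06), where Mrps6 rose by 0.32. In pyruvate against lactate Slc5a3 rose by 0.18 (adjusted p = 0.0070), where Mrps6 rose by 0.33. In all, 25 of the 78 genes share bases with another annotated gene, and whether counting used strand is not given in the sources used here.

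With pyruvate against NaCl, the 9 genes that fell were Mrpl34, Mrpl54, Mrpl38, Mrps18a, Mrpl4, Mrps14, Mrpl37, Mrpl24 and Mrpl9. Mrpl34 had 23.3, 18.6 and 21.1 CPM with pyruvate, against 25.8, 26.6 and 28.3 CPM with NaCl, without overlap, and fell by 0.36 (SE 0.09, adjusted p = 0.014). Mrpl38, a subunit without a bacterial counterpart, had 49.9, 51.9 and 52.5 CPM with pyruvate, against 57.5, 59.8 and 59.0 CPM with NaCl, also without overlap, and fell by 0.19 (adjusted p = 0.0071). The other 7 changed by -0.20 (Mrpl54) to -0.13 (Mrpl9). When 1 library was left out, 1 to 6 genes of the family were called, with 1 called without pyruvate replicate 2, 2 without NaCl replicate 2, 3 without pyruvate replicate 3 or NaCl replicate 3, and 5 without NaCl replicate 1. The call of Mrpl34 was lost without pyruvate replicate 2 (adjusted p = 0.096) and without NaCl replicate 3 (adjusted p = 0.0571). Of the 9 calls, that of Mrpl38 was the 1 kept under all 13 alternatives, and the others were lost in 2 to 8 of them.

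Between pyruvate and lactate, at the same dose and time, pyruvate gave the lower level in most genes that differed. One pair of compounds was compared, with p-values adjusted over all genes. Mrpl40, a subunit without a bacterial counterpart, had 36.3, 40.4 and 41.5 CPM with pyruvate, against 47.0, 54.2 and 46.8 CPM with lactate, without overlap, and fell by 0.33 (SE 0.07, adjusted p = 0.0019). Mrpl34 fell by 0.33 (adjusted p = 0.014), a call lost without pyruvate replicate 2 (adjusted p = 0.0899) and without lactate replicate 3 (adjusted p = 0.058). Mrpl55, Mrps10, Mrpl1 and Mrps34 fell by 0.27, 0.27, 0.26 and 0.24. The call of Mrpl55 was lost without pyruvate replicate 1, lactate replicate 1 or lactate replicate 3 (adjusted p = 0.0536 to 0.0659). Mrpl45, which lies at the exit of the peptide tunnel and helps to hold the ribosome at the inner membrane, had 102, 93.2 and 99.9 CPM with pyruvate, against 86.5, 88.9 and 91.2 CPM with lactate. The groups did not overlap, and it rose by 0.14 (adjusted p = 0.013); the other gene that rose was Mrps6. The call of Mrpl45 was lost without pyruvate replicate 1 (adjusted p = 0.0717), pyruvate replicate 3 or lactate replicate 1 (adjusted p = 0.0547 each). For all 49 genes that were not called, the 95% interval of the difference lay within 1.5-fold, with the widest bounds at -0.44 and 0.44 on the log2 scale. The count of calls, 29, was 17 without pyruvate replicate 2 and 19 without lactate replicate 3.

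The large subunit had the lower median in each comparison in which the family's median was below 0. With Oxyrase against lactate, 23 of 51 large-subunit genes fell (45.1%) and 4 rose, beside 9 of 26 small-subunit genes that fell (34.6%) and 1 that rose, and the medians were -0.13 and -0.10. With pyruvate against lactate, 20 of 51 large-subunit genes (39.2%) and 6 of 26 small-subunit genes (23.1%) fell and 1 of each rose, with medians of -0.14 and -0.09. With pyruvate against NaCl, 8 of 51 and 1 of 26 fell (medians -0.10 and -0.05). With Oxyrase against NaCl, 20 of 51 large-subunit genes fell and 5 rose, beside 10 of 26 small-subunit genes that fell and 4 that rose (medians -0.09 and -0.05). With lactate against NaCl the medians were 0.04 and 0.05. The difference between subunits was not tested.

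The ratio of summed CPM, large over small subunit, was 1.947, 1.974 and 1.965 with pyruvate, 2.024, 1.965 and 1.985 with lactate, 1.89, 1.956 and 1.953 with lactate and Oxyrase, and 2.014, 2.012 and 1.988 with NaCl. The Oxyrase libraries lay below all lactate and all NaCl libraries, and the pyruvate libraries lay below all NaCl libraries and overlapped lactate. When genes were assigned by the letter in their symbol, the ratio was 1.631, 1.672 and 1.666 with lactate and Oxyrase, against 1.702, 1.67 and 1.686 with lactate, and those groups overlapped.

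The 3 Mrps18 genes encode relatives of 1 bacterial protein that occupy different places, Mrps18a in the large subunit and Mrps18b and Mrps18c in the small. Mrps18a had 39.4, 36.7 and 37.5 CPM with pyruvate, against 40.5, 43.5 and 43.3 CPM with NaCl, without overlap, and fell by 0.17 (SE 0.05, adjusted p = 0.022). That call was lost with the replicate block (adjusted p = 0.053) and with any 1 of 4 libraries left out, pyruvate replicates 2 and 3 and NaCl replicates 2 and 3 (adjusted p = 0.0687 to 0.106). Mrps18b and Mrps18c gave -0.03 and 0.06 there and were not called, and they rose in lactate with Oxyrase against NaCl by 0.10 and 0.16. The call of Mrps18b was lost in 11 of 13 alternatives and that of Mrps18c in 4, scaling on library totals among them in each case. The difference between the 3 relatives was not tested. Mrps36, the dehydrogenase component, had 29.4, 31.7 and 33.0 CPM with lactate and Oxyrase, against 33.8, 35.5 and 36.9 CPM with lactate, without overlap, and fell by 0.17 (adjusted p = 0.016), a call lost without lactate replicate 3 or Oxyrase replicate 1. Mrpl23 had the lowest mean of the family, 5.23 CPM, while its pseudogene Mrpl23-ps1, left out by the rule on names, had 18.5 to 25.3 CPM, both on library totals. Reads of near-identical copies can be split between them, so the value of Mrpl23 is uncertain.

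Many of these genes share a promoter region with a neighbour. Of 69 genes with a RefSeq start, 26 (37.7%) had a partner on the other strand starting within 1000 bases, beside 2034 of 10170 tested genes (20.0%). In 1 pair both are members, Mrpl46 of the large and Mrps11 of the small subunit, whose starts lie 42 bases apart. The 41 bases between them (chr7:78783090-78783130, minus strand, RefSeq GRCm38.p6, in the direction of Mrpl46) are shown because both genes start at this interval, with CCGCCC, the SP1 motif on the other strand, in capitals.
Mrpl46 and Mrps11: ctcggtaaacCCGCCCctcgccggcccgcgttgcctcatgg
Mrpl46 had 28.3, 26.3 and 30.1 CPM with pyruvate, against 33.5, 30.7 and 31.4 CPM with lactate, without overlap, and fell by 0.18 (SE 0.06, adjusted p = 0.033). These groups overlapped on library totals, and the call was lost in 6 of 13 alternatives (adjusted p = 0.0585 to 0.172), that scaling, the replicate block and 4 single libraries left out. Mrps11 had 25.9, 26.6 and 30.1 CPM with pyruvate, against 31.9, 31.7 and 29.6 CPM with lactate, which overlapped, with -0.18 (SE 0.09, adjusted p = 0.16, not called).

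Of the 25 partnerships with both genes tested, in which the Mrpl46 and Mrps11 pair counts from each side, both partners fell in 4 and both rose in 1 in lactate with Oxyrase against lactate. The member alone was called in 6 and the partner alone in 6. Against NaCl both fell in 3, both rose in 1, and the calls were opposite in 3. One of these was Mrpl18, whose partner Tcp1, a subunit of the cytosolic chaperonin, had 906, 869 and 855 CPM with lactate and Oxyrase, against 774, 772 and 789 CPM with NaCl. Tcp1 rose by 0.17 (adjusted p = 0.00052) without overlap, where Mrpl18 fell by 0.46. The other pairs with opposite calls were Mrps18b with Ppp1r10 (0.10 and -0.50) and Mrps18c with Helq (0.16 and -0.33). Calls were not counted in this way for pairs of other genes. Among all genes tested, 23.6% fell and 26.1% rose in lactate with Oxyrase against lactate. Against NaCl 24.3% fell and 26.5% rose.

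Mrpl32 and Psma2, a proteasome subunit, start 205 bases apart, and Psma2 gave -0.09 against NaCl (adjusted p = 0.073, not called) where Mrpl32 rose by 0.36. The 204 bases between them (chr13:14613038-14613241, minus strand, RefSeq GRCm38.p6, in the direction of Mrpl32) are shown because they hold a match to the motif of NRF1, a factor known to act at genes for mitochondrial proteins. Capitals mark that match, GCGCATGCGC, for which the search allowed any base at position 6, and GGGCGG.
Mrpl32 and Psma2: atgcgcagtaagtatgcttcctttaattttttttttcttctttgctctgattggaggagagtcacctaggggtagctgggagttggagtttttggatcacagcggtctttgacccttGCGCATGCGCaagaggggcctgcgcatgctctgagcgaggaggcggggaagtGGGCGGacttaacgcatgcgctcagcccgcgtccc

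Short motifs were counted on both strands of the 300-base RefSeq windows of 69 genes of the family and 10101 other tested genes. The ETS-type motif CCGGAAG stood in 26 of the family (37.7%) and in 20.4% of the others. AAGATGG, the core bound by YY1, stood in 13 (18.8%) and in 8.36%, and the NRF1 motif in 13 (18.8%) and in 11.5%. GGGCGG, bound by SP1, was found in 34 (49.3%), beside 67.4% of the others, and by subunit in 37.8% of large-subunit and 69.6% of small-subunit genes. None of these nor the 12-base element above was found in 12 genes (17.4%), beside 21.6% of the others. A match describes the letters in the window, not a bound site, and motifs can overlap. The 250 bases before Mrpl36 (chr13:73330759-73331008, plus strand) are shown because this gene, among the largest falls with Oxyrase, holds AAGATGG and none of the other motifs, here on the other strand as CCATCTT in capitals.
Mrpl36: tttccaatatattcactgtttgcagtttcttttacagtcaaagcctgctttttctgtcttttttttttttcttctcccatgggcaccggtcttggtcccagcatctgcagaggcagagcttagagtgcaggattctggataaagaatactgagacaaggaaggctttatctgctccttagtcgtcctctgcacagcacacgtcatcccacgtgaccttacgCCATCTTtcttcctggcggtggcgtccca

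Accessibility was measured in 82 peaks within 1000 bases of a start, at 77 of the 78 genes (all but Mrpl4), and 79 of these peaks contained the start. The peaks were 273 to 1977 bases wide, with a median of 957, beside 438 for all peaks. Of the 82, 31 also lay at another gene's start and cannot be assigned to 1 gene. In pyruvate against NaCl no peak was called by edgeR, here or among all 13553 peaks at gene starts (0.00%), the lowest adjusted p of the 82 was 0.864, 1 had an unadjusted p under 0.05, and DESeq2 also called 0. In lactate against NaCl 20 peaks fell (24.4%) and 0 rose, beside 17.5% lower and 0.391% higher among peaks at gene starts. In lactate with Oxyrase against lactate 32 fell (39.0%) and 0 rose, beside 22.2% lower and 4.69% higher. In lactate with Oxyrase against NaCl 53 fell (64.6%) and 0 rose, beside 45.5% lower and 8.01% higher. In pyruvate against lactate 26 rose (31.7%) and 1 fell (1.22%), beside 20.7% higher and 1.90% lower. The medians were -0.14, -0.20, -0.34 and 0.17 in the last 4 comparisons, beside -0.11, -0.12, -0.22 and 0.10 for peaks at gene starts.

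**Figure D4:**
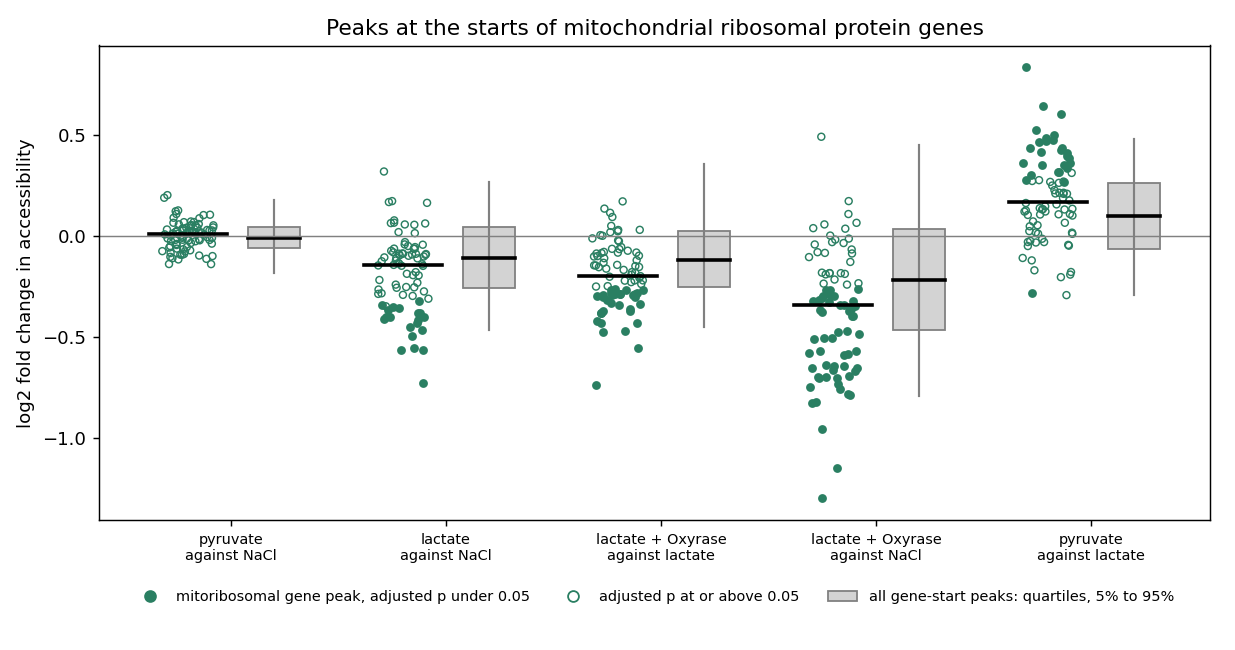
Log2 fold change in accessibility of the 82 peaks at starts of these genes (green points, filled where the adjusted p was under 0.05) beside all 13553 peaks at gene starts (grey boxes from lower to upper quartile, lines from 5% to 95%) in the 5 comparisons, with bars at medians and libraries scaled on all peaks. The medians of the 82 peaks are -0.14, -0.20 and -0.34 in the comparisons of the lactate groups with NaCl or with each other and 0.17 in pyruvate against lactate.

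These counts depend on how the libraries were scaled. Scaled on gene-start peaks alone, 13 fell and 3 rose in lactate against NaCl, 12 fell and 3 rose in lactate with Oxyrase against lactate, 32 fell and 12 rose in lactate with Oxyrase against NaCl, and 15 rose and 7 fell in pyruvate against lactate. The medians were then -0.01, -0.09, -0.10 and 0.04. Scaled on library totals, 16 fell and 1 rose, 26 fell and 0 rose, 46 fell and 3 rose, and 21 rose and 5 fell in the same order. Shares among all peaks at gene starts were not counted under these 2 scalings. The shares given above hold for TMM scaling on all peaks and cannot be set beside these counts. Single libraries also moved the counts. In lactate against NaCl, 12 peaks were called without lactate replicate 2, 6 without lactate replicate 3, 6 without NaCl replicate 1, 5 without NaCl replicate 2 and 35 without NaCl replicate 3. In lactate with Oxyrase against lactate 18 were called without lactate replicate 2, and in pyruvate against lactate 15 without lactate replicate 3.

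The peaks at Mrpl10 and Mrpl45 were called under scaling on all peaks and on gene-start peaks. The peak at Mrpl10 (chromosome 11, 97041095 to 97041851 in mm10, coordinates as the files give them) had 11.1, 12.2 and 9.88 CPM with lactate and Oxyrase, against 20.8, 16.9 and 17.6 CPM with lactate and 29.6, 31.2 and 21.4 CPM with NaCl. The Oxyrase libraries lay below all libraries of both other groups, with -1.30 against NaCl (SE 0.11, adjusted p = 2.6e-12) and -0.74 against lactate (adjusted p = 2.1e-06), and -1.05 and -0.62 when scaled on gene starts. The peak at Mrpl45 (chromosome 11, 97315419 to 97316103) had 29.3, 31.0 and 25.4 CPM with pyruvate, 18.6, 15.4 and 13.8 CPM with lactate, 11.4, 13.5 and 10.9 CPM with lactate and Oxyrase, and 28.4, 30.7 and 20.6 CPM with NaCl. All lactate libraries, with or without Oxyrase, lay below all pyruvate and NaCl libraries. It fell by 0.73 with lactate against NaCl (adjusted p = 0.00019) and by 1.15 with lactate and Oxyrase against NaCl (adjusted p = 1.2e-10), and rose by 0.84 in pyruvate against lactate (adjusted p = 2.7e-05). With scaling on gene starts these changes were -0.59, -0.90 and 0.71. Peaks at Mrpl49 and Mrps24 fell in lactate with Oxyrase against NaCl by 0.95 and 0.83, and that at Mrps12 rose in pyruvate against lactate by 0.64. The peaks at Mrpl49 and Mrps12 also lay at the starts of Fau and Sars2, so they cannot be assigned to 1 gene. The peak at Mrps25 was the 1 that fell in pyruvate against lactate, with 21.0, 20.0 and 19.6 CPM with pyruvate, against 24.4, 25.4 and 23.9 CPM with lactate (-0.28, adjusted p = 0.029). This call was lost with any 1 of the 6 libraries left out and with upper quartile scaling (adjusted p = 0.0545 to 0.114).

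Peak and transcript of the same gene were often called differently. With Oxyrase against NaCl, the transcripts of Mrpl10 and Mrpl45 gave -0.06 and 0.05 and were not called. The peaks at Mrpl42 and Mrpl36, whose transcripts were among the largest falls, gave -0.21 (adjusted p = 0.058) and 0.11 (adjusted p = 0.34). At Mrpl34 the peak over the start fell by 0.58 and the transcript by 0.67, but this peak was also counted at the start of Abhd8. Of 77 genes with a peak, 17 had both lower in this comparison, 13 a lower transcript with no call at the peak, 5 a higher transcript with a lower peak, and 26 a lower peak with no call of the transcript. In pyruvate against lactate 8 had a lower transcript with a higher peak, 1 had both higher and 0 had both lower. Across the 77 genes Pearson's r between the log2 fold changes was 0.06 in lactate with Oxyrase against NaCl, 0.03 in pyruvate against lactate and 0.22 in lactate against NaCl. The genes share libraries and some share peaks, so these values are descriptions without a test. Among all genes tested 24.3% fell with Oxyrase against NaCl, and among all peaks at gene starts 45.5% fell. The joint counts were not made for other genes. They rest on scaling on all peaks, under which 53 of the 82 peaks fell and 0 rose in that comparison. Scaled on gene-start peaks, 32 fell and 12 rose, and the joint counts were not made there.

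**Figure D5:**
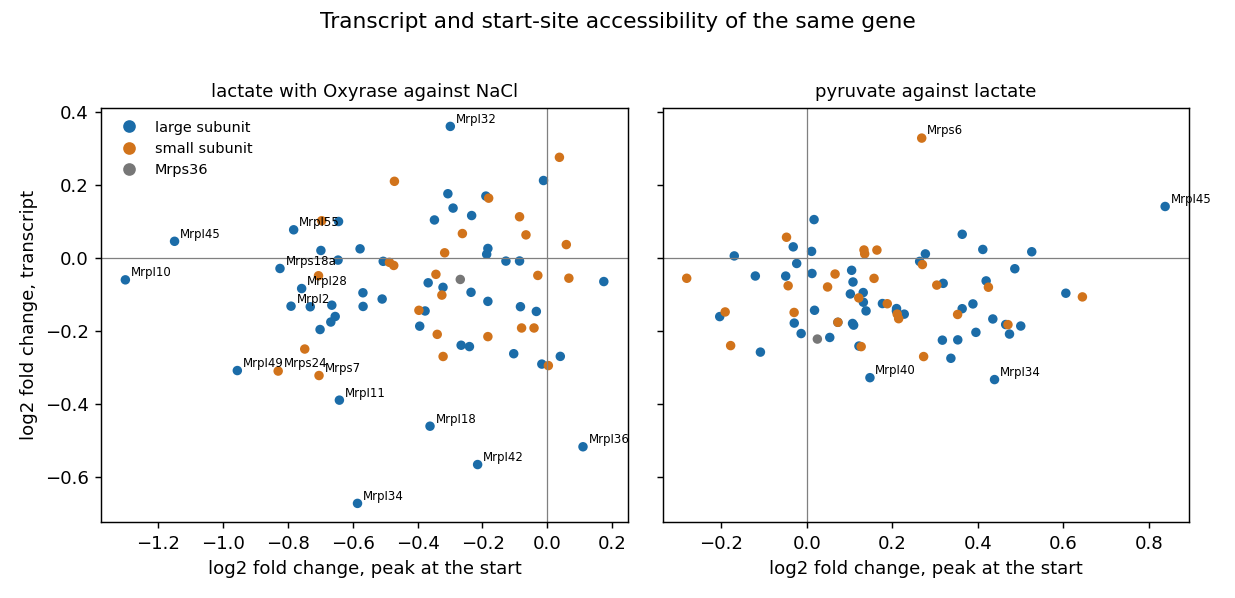
Log2 fold change of the transcript against that of the peak at the start for the 77 genes with a peak (points, coloured by subunit), each comparison in its own panel. The points show no common slope, with Pearson's r of 0.06 in lactate with Oxyrase against NaCl and 0.03 in pyruvate against lactate.

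Other genes that serve mitochondrial translation were read from lists. Of 13 translation factors tested, 6 fell and 1 rose in lactate with Oxyrase against lactate, 3 fell in pyruvate against NaCl and 5 fell in pyruvate against lactate. Among all genes tested, 23.6% were lower and 26.1% higher in the comparison with Oxyrase, 6.28% lower in pyruvate against NaCl and 10.9% lower in pyruvate against lactate, and the counts of each list below are to be read against these shares. Tsfm, the exchange factor of the elongation factor Tufm, had 25.3, 24.5 and 24.8 CPM with lactate and Oxyrase, against 38.4, 35.0 and 37.8 CPM with lactate, without overlap, and fell by 0.58 (SE 0.06, adjusted p = 3.9e-07). Tufm, which brings transfer RNA to the ribosome, fell there by 0.24 and Mtif2, an initiation factor, rose by 0.27. Both Tsfm and Tufm also fell in pyruvate against lactate, by 0.33 and 0.21. Of 28 genes for assembly and rRNA modification, 7 fell and 4 rose in lactate with Oxyrase against lactate, near the share of lower calls among all genes (23.6%) and under that of higher calls (26.1%). Among them were Rbfa, which acts on the small subunit's RNA (-0.46), Fastkd2 (-0.44) and the methyltransferase Nsun4 (0.45). Among 5 mitochondrial ribosomal proteins under other names, Dap3 (-0.18) and Ptcd3 (-0.16) of the small subunit fell there and Gadd45gip1 of the large subunit rose (0.25).

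The mitochondrial ribosomal RNAs rose with lactate against NaCl. The RNA of the large subunit, mt-Rnr2, had 3645, 4249 and 3558 CPM with lactate, against 2331, 2361 and 2565 CPM with NaCl, without overlap, and rose by 0.66 (SE 0.08, adjusted p = 0.00014). It had 4046, 3741 and 3328 CPM with lactate and Oxyrase, which overlapped lactate (-0.04, not called). The RNA of the small subunit, mt-Rnr1, rose by 0.64 with lactate against NaCl and fell by 0.35 in lactate with Oxyrase against lactate. It had 916, 779 and 708 CPM with lactate and Oxyrase, against 947, 1204 and 910 CPM with lactate, groups that overlapped. The libraries were made by poly(A) capture, which is not designed to recover these RNAs in full. Of 8 regulators of mitochondrial genes tested, 4 fell and 2 rose in lactate with Oxyrase against lactate (23.6% and 26.1% among all genes), where Ppargc1b (-0.79), Myc (-0.69), Nrf1 (-0.38) and Pprc1 (-0.22) fell and Gabpb1 (0.29) and Gabpa (0.17) rose. Of the 13 messenger RNAs encoded in mitochondria, 1 fell and 1 rose in lactate with Oxyrase against lactate, fewer than those shares. Some of these RNAs spread widely within a group, as mt-Co2 (326, 434 and 159 CPM with lactate). Others spread little, as mt-Co1 (14450, 15830 and 14700 CPM with lactate). Of 8 genes for mitochondrial DNA and its transcription, 1 fell and 0 rose in that comparison. Of 3 genes for membrane insertion 1 fell and 2 rose. Myc had 353, 333 and 329 CPM with lactate and Oxyrase, against 553, 565 and 522 CPM with lactate, without overlap.

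The 81 genes counted as cytosolic ribosomal protein genes were chosen by symbol, which also took in related genes such as Rpl7l1, Rpl22l1, Rps4l and Rps27l. Of the 81, 10 fell and 18 rose in lactate with Oxyrase against lactate (median 0.01), beside 23.6% lower and 26.1% higher among all genes tested. In lactate with Oxyrase against NaCl 12 fell and 32 rose (median 0.04), beside 24.3% lower and 26.5% higher. In pyruvate against lactate 36 of them fell and 2 rose (median -0.11), beside 10.9% lower and 13.0% higher. In pyruvate against NaCl 9 of the cytosolic genes fell and 3 rose (median -0.08), beside 6.28% lower and 9.40% higher among all genes. In lactate against NaCl 0 fell and 4 rose (median 0.05), beside 4.12% lower and 3.61% higher. The medians of the mitochondrial family in these comparisons were -0.08 and 0.04. The difference between the cytosolic and the mitochondrial genes was not tested.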

How the data were processed

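RNA-seq and ATAC-seq of 24 libraries (12 per assay) were analysed from the authors' deposited tables. RNA values are estimated counts per gene, made by the authors with RSEM 1.2.12 and Bowtie2 2.2.0 on mm10, per the submitters' processing notes. Of the values above 0, 99.24% were whole (tolerance 1e-09). Values above 1 with decimals occurred in 460 genes, of which 448 were listed at 0 in all libraries of 1 replicate number, and 0 of the 460 were members. ATAC values are deposited read counts per peak, with duplicates and mitochondrial reads removed per the file headers.

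Estimated counts were rounded. Genes passed filterByExpr, libraries were scaled by TMM, and all 12 libraries of an assay entered 1 edgeR 4.0.16 quasi-likelihood model with 8 residual degrees of freedom (R 4.3.3, limma 3.58.1), Benjamini-Hochberg adjusted over all features. The biological coefficient of variation was 5.05% for RNA and 9.70% for ATAC. DESeq2 1.42.0 was an alternative. The code was tested on simulated data. Levels of genes and peaks are TMM-scaled CPM except where library totals are named; the sums on library totals were added after seeing the data. Levels were not compared between genes, since lengths were not used here. Named genes were the 6 highest and 6 lowest called changes without overlap in each RNA comparison, genes of set roles, genes without overlap in all 5 comparisons, and the 4 highest and 4 lowest called peaks in each ATAC comparison; a part of the rule on levels per length was not used. Other genes (Slc5a3, Tcp1, Psma2, the context lists) were named as neighbours or list members. The members and lists were chosen with earlier results of these data known. Promoter sequences are from RefSeq (GRCm38.p6), where 9 of the 78 genes had no entry. The alternatives tried were other scalings, no filter, DESeq2, a replicate block, 2 groups only, single libraries left out and other membership or peak limits.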

Additional observations from a re-analysis of the deposited data

How the results depend on the processing

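No called gene or peak reversed. The median of the 82 peaks in pyruvate against NaCl, where none was called, was 0.01 and ran from -0.08 (without NaCl replicate 3) to 0.05 with 1 library left out. Of 160 alternative counts of called genes or peaks, 142 stayed within 1.5 times the reported count and 18 did not. Some of the 142 could not move or had little room to. The limit of mean CPM above 0 kept the same 78 genes, and the peak counts in pyruvate against NaCl were 0 throughout. With the replicate number as a block, the RNA calls were 3 in pyruvate against NaCl (9 without the block), 2 in lactate against NaCl (3), 35 in lactate with Oxyrase against lactate (38), 33 in lactate with Oxyrase against NaCl (39) and 24 in pyruvate against lactate (29). For ATAC the block gave 0, 24, 36, 54 and 32 calls in the same order of comparisons. The labels do not say that a number marks a shared source. Correlations of deviations between same-numbered RNA libraries ran from -0.245 to -0.084 (median -0.162), all below the -0.078 to 0.18 between other numbers (median 0.077), so the number separates the RNA pairs without same-numbered libraries deviating together. In ATAC the ranges were -0.169 to 0.198 and -0.22 to 0.187, and the block is given as an alternative alone. Without the filter on low counts, lactate against NaCl gave 7 calls in RNA, and scaling on gene-start peaks gave 15 in lactate with Oxyrase against lactate in ATAC; the cause was not tested. Leaving out 1 library gave 1 to 6 RNA calls in pyruvate against NaCl, 1 to 4 in lactate against NaCl (1 without NaCl replicate 2), 30 to 38 in lactate with Oxyrase against lactate, 30 to 37 in lactate with Oxyrase against NaCl and 17 to 28 in pyruvate against lactate. In ATAC it gave 0 in pyruvate against NaCl, 5 to 35 in lactate against NaCl, 18 to 27 in lactate with Oxyrase against lactate, 47 to 61 in lactate with Oxyrase against NaCl and 15 to 27 in pyruvate against lactate. Counting Mrpl23-ps1 as a member, an alternative chosen after seeing the data, left the RNA counts at 9, 3, 38, 39 and 29. The 118 calls of genes had 1534 values under alternatives, of which 1305 kept call and direction and 229 kept the direction alone, 171 of these with 1 library left out; 69 calls held under every alternative. For the 132 calls of peaks the corresponding numbers were 1848, 1581, 267, 177 and 60.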
